A study of Homo sapiens with 36 samples.

Results

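The 8 libraries described here compare homozygous RAI1 knockout (KO) with wild-type (WT) cells at day 3 of neuronal induction, 4 libraries against 4, chosen by genotype and day in the labels from 36 libraries. All cells derive from H9, an established human embryonic stem cell line, and all were induced with NGN2, the protein of the proneural gene NEUROG2. The series holds 3 RAI1 genotypes (WT, RAI1+/- called HET, and RAI1-/- called KO) at days 0, 3 and 7 with 4 libraries each. The groups used are KO and WT at day 3, the 4 HET libraries of day 3, KO and WT at day 0, and WT at day 7. Per the labels' protocols the culture used Neurobasal-A with B27, GDNF, NT3, CultureOne and doxycycline. The labels call the libraries biological replicates without naming separate cultures, so the p-values measure only the spread between these samples, which may be technical. The number of clones behind each genotype and the kind of edit are not given in the sources used here, so genotype and clone cannot be told apart.

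RAI1 encodes a nuclear protein that associates with chromatin and regulates transcription, and its dosage matters in people: loss of a copy causes Smith-Magenis syndrome. NGN2 is a basic helix-loop-helix transcription factor that turns on a cascade of further neuronal factors, and forced expression of it turns pluripotent cells into neurons that are mostly glutamatergic. In that course cells leave the cell cycle, lower Notch targets such as HES1, and switch on genes of the neuronal cytoskeleton, then of axons, synapses and excitability.

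Ribosomal RNA was removed before sequencing, and reads were pairs of 151 bp. The estimated counts summed to 38.5 to 45.7 M per KO library and to 41.8 to 51.3 M per WT library, where M is 1000000 counts. A test of the totals did not pass (exact two-sided permutation p = 0.4 over 70 splits of 4 against 4, for which the smallest possible p is 0.0286). Small structural RNAs took 3.54 to 18.75% of the counts in KO and 8.99 to 19.6% in WT (exact permutation p = 0.429). Across genes, log2 counts scaled to 1000000 per library (CPM) correlated at 0.951 to 0.981 between KO replicates and at 0.969 to 0.986 between WT replicates. All libraries carry the same batch label.

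The counts of RAI1 itself did not separate the genotypes. RAI1 (ENSG00000108557) was read at 75.8, 108, 66 and 38 CPM in KO replicates 1 to 4 and at 79.1, 67.7, 46.7 and 41.3 CPM in WT. The ranges overlapped, and the KO mean of 72 ± 29 (SD, n = 4) did not pass the test against the WT mean of 58.7 ± 17.8 (log2 difference 0.27, SE 0.307, edgeR quasi-likelihood adjusted p = 0.562). A gene-level count does not show whether a transcript is intact, so these values do not check the genotype labels, and RAI1 shares its interval with RAI1-AS1, SMCR5 and SREBF1, whose reads may mix with it. Of its reported protein partners, TCF20 and PHF14 did not pass the test (log2 differences 0.21 and 0.32, edgeR adjusted p = 0.402 and 0.128). With the replicate number as a block PHF14 passed at an adjusted p of 0.0416.

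At day 3 a large part of the transcriptome differed between KO and WT. Of 21563 genes tested, 4649 (21.6%) passed an adjusted p under 0.05 in edgeR, 2723 (12.6%) higher and 1926 (8.93%) lower in KO. The median log2 difference was 1.32 among genes called higher, -1.17 among genes called lower and -0.05 over all genes tested. A difference of at least 1 on the log2 scale was reached by 1809 called higher and 1212 called lower genes, and one of at least 2 by 768 and 277. All 4 KO libraries lay above all 4 WT libraries for 3069 genes (14.2%) and below them for 2306 (10.7%). Protein-coding genes were called more often (26.4%) than long non-coding RNAs (13.8%). Same-numbered KO and WT libraries deviated together, and with the replicate number as a block 8138 genes were called, 51.3% of them higher in KO. On the deposited TPM scale, which corrects for length and total but not for composition, limma on log2(TPM + 1) called 782 genes, 87.0% of them higher, and the median over all genes moved to 0.32.

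**Figure D1:**
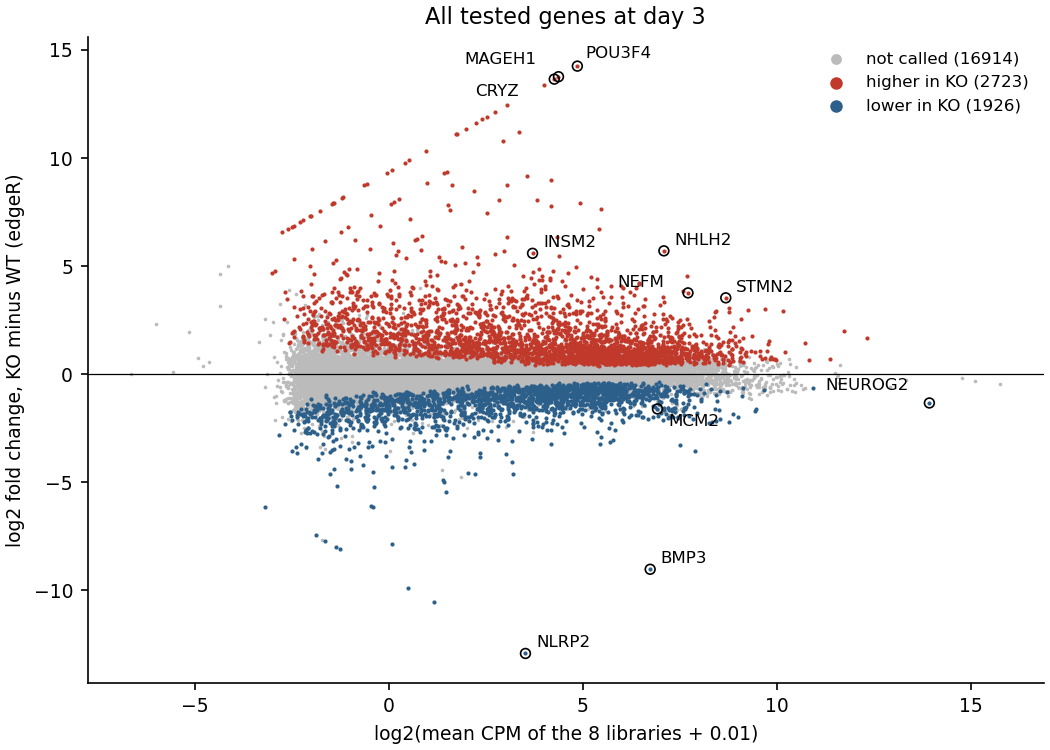
Log2 difference KO minus WT at day 3 (vertical) against mean level (log2 CPM, horizontal) for the 21563 genes tested, 1 point per gene, coloured by the edgeR call. The 2723 genes called higher spread to larger differences than the 1926 called lower.

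Within the groups the libraries were not equally far apart. KO replicate 4 was the KO library nearest to the WT range for 1601 of the 2723 higher genes (58.8%) and for 992 of the 1926 lower genes (51.5%), whereas KO replicate 1 was nearest for 323 (11.9%) and 122 (6.33%). Since these genes were called from the same libraries, the shares describe the spread and test nothing. Leaving out KO replicate 4 gave 5813 calls, and leaving out KO replicate 1 gave 3214.

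Genes of the neuronal cytoskeleton were higher in KO almost throughout: 22 of 25 tested members were called higher in KO, none lower, with a median log2 difference of 2.41. Summed over the list, the level was 7820 to 9790 CPM in WT and 22400 to 32200 CPM in KO, so the groups did not overlap. STMN2, a tubulin-binding stathmin of growing axons, was at 993, 675, 891 and 471 CPM in KO replicates 1 to 4 and at 33.7, 87.5, 82.8 and 55.1 CPM in WT. Every KO library was above every WT library, and the log2 difference was 3.53 (SE 0.499, edgeR adjusted p = 0.000282). NEFM, the medium neurofilament chain, was at 440, 264, 498 and 359 CPM in KO against 19.3, 29.8, 29.3 and 35.5 CPM in WT (3.76, SE 0.341, edgeR adjusted p = 1.08e-05). STMN4, a further stathmin, was at 48.9, 29.6, 43.9 and 54.5 CPM against 0.645, 2.89, 3.61 and 3.36 CPM (4.06, SE 0.478, edgeR adjusted p = 7.46e-05). GAP43, a growth cone protein, and DCLK1, a microtubule-associated kinase, rose by 3.15 and 3.45 (edgeR adjusted p = 0.000472 and 0.000686). TUBB3, the neuronal beta-tubulin, was already abundant in WT and rose less, from 919 ± 64.8 to 2500 ± 525 CPM (1.43, edgeR adjusted p = 0.000383). The 3 members that did not pass were STMN1, STMN3 and NEFH.

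Neuronal RNA-binding and splicing proteins rose as well, 14 of 19 tested and none lower, with a median of 1.24. In limma on log2(TPM + 1) 8 of 18 were called higher, with a median 1.05 above that of all genes. NOVA2, a neuronal splicing regulator, was at 323, 393, 266 and 250 CPM in KO and at 50.9, 57, 48.6 and 56.8 CPM in WT. The libraries within each genotype were close together, and the log2 difference of 2.51 had an SE of 0.204 (edgeR adjusted p = 4.54e-06). ELAVL4, which binds AU-rich elements in neuronal transcripts, was at 71.5, 115, 176 and 233 CPM against 3.57, 9.49, 21 and 11.8 CPM (3.68, SE 0.5, edgeR adjusted p = 0.000213). The related ELAVL3 rose by 2.31, and the splicing factors CELF3 and CELF5 by 1.92 and 1.74 (edgeR adjusted p = 6.27e-06, 5.76e-05 and 0.000144). In bulk RNA, more cells of a type and more RNA per cell cannot be told apart, here and in the groups that follow.

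**Figure D2:**
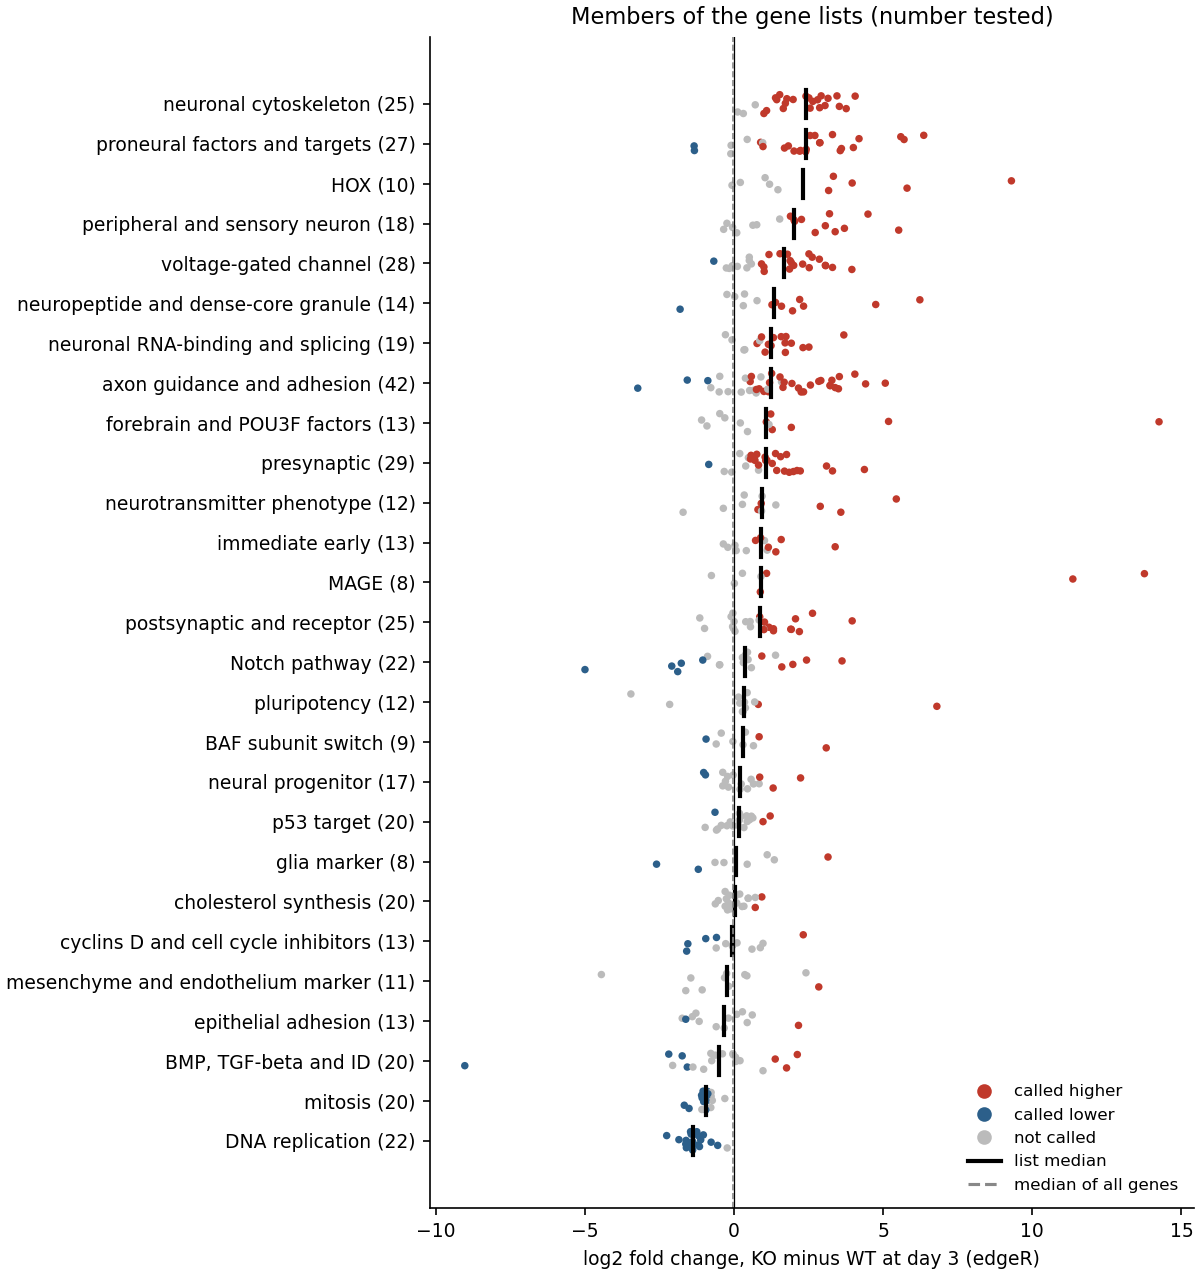
Log2 difference KO minus WT at day 3 for each tested member (points) of the gene lists with at least 8 tested members, with the list median as a black bar and the median of all genes tested (-0.05) as a dashed line. Neuronal lists lie to the right, with a median of 2.41 for the cytoskeleton, and DNA replication (-1.39) and mitosis (-0.94) to the left.

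Most proneural factors and known targets of NGN2 were higher in KO, and NEUROG2, the gene of the inducer, was lower. Of 27 tested members, 21 were called higher and 2 lower, and the median was 2.40. NHLH2, a neuronal basic helix-loop-helix factor, was at 333, 214, 331 and 191 CPM in KO and at 1.51, 7.28, 8.61 and 2.86 CPM in WT. The lowest KO library was far above the highest WT library, and the log2 difference was 5.70 (SE 0.832, edgeR adjusted p = 0.000361). INSM2, a zinc-finger factor of the insulinoma-associated family, was at 22.6, 28.2, 28.9 and 22.3 CPM against 0.24, 0.546, 0.785 and 0.52 CPM (5.59, SE 0.576, edgeR adjusted p = 2.99e-05). ONECUT3, a homeodomain factor, was at 26.6, 19.9, 14.2 and 4.91 CPM against 0.0553, 0.296, 0.285 and 0.156 CPM (6.36, SE 0.773, edgeR adjusted p = 9.39e-05). MYT1L and ST18, zinc-finger factors of the myelin transcription factor family, rose by 4.19 and 4.00 (edgeR adjusted p = 0.00115 and 0.000614).

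The lower members, named after their values were seen, were GADD45G and NEUROG2 itself. NEUROG2 was read at 8590, 7930, 8290 and 11000 CPM in KO and at 23400, 20700, 19800 and 25300 CPM in WT, with HET between them at 15900, 14900, 15100 and 18100 CPM. No KO library reached a WT library, and the log2 difference was -1.34 (SE 0.206, edgeR adjusted p = 0.000526), with -0.88 for KO minus HET (edgeR adjusted p = 0.0284). Reads of the transgene and of the endogenous gene cannot be told apart in the count of NEUROG2, which also overlaps AC023886.1. At day 0 the difference was -3.48 (edgeR adjusted p = 0.000168). GADD45G, a growth arrest gene, was at 9.69, 10.2, 11.9 and 14.7 CPM in KO and at 20.4 to 38.9 CPM in WT (-1.33, SE 0.288, edgeR adjusted p = 0.005). HES6, CBFA2T3 and BTG2 were among the members that did not pass.

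Start-site windows are shown for NHLH2 and INSM2, genes of the proneural list that were many times higher in KO. Both were chosen because their windows hold a word of the kind marked below, so its presence there tests nothing. The sequences are RefSeq windows on GRCh38.p14, from 250 bases before to 50 bases after the annotated start, on the strand of the gene. Capitals mark E-box words, the short sites that basic helix-loop-helix proteins can bind, searched on both strands as CAGATG, whose other strand reads CATCTG, and as the palindrome CAGCTG. The NHLH2 window is at chr1:115841077-115841376 on the minus strand and the INSM2 window at chr14:35533914-35534213 on the plus strand. The NHLH2 window lies inside the GENCODE 29 interval of that gene (115836377 to 115843917), whose outer start is further upstream and is not shown.
NHLH2: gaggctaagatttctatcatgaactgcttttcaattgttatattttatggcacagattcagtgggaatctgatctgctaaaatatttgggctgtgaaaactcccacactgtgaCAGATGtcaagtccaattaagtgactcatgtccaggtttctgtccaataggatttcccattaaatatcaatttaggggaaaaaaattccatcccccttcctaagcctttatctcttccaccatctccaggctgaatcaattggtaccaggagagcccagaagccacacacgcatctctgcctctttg
INSM2: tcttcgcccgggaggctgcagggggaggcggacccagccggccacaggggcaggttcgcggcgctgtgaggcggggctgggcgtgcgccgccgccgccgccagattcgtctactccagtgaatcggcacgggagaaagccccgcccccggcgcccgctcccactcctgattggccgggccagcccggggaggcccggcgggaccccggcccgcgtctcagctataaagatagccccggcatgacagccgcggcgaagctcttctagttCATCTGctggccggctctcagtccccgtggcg
At least 1 such word was in 25.4% of the windows of all genes tested, in 26.2% of those of genes called higher and in 24.7% of those of genes called lower. Among the proneural list 10 of 20 windows held one. A match describes the letters and is no measured binding site.

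Notch pathway genes went both ways in edgeR, with 5 of 22 tested members higher and 5 lower. In limma on log2(TPM + 1) 4 of 20 were called higher and 0 lower, with a median 0.38 above that of all genes. Of the ligands, JAG2 was at 42.4, 46.7, 33.2 and 34.6 CPM in KO and at 3.5, 6.14, 7.47 and 11.5 CPM in WT (2.43, SE 0.321, edgeR adjusted p = 0.00017), and DLL4 rose by 1.60 (edgeR adjusted p = 2.25e-05). The ligand DLL1 was lower, at 15.6, 47.2, 28.7 and 68.8 CPM against 130, 107, 126 and 304 CPM (-2.09, SE 0.616, edgeR adjusted p = 0.0277), with values between 0.0597 and 0.0909 without KO replicate 1, 2 or 3 or WT replicate 4. It overlaps FAM120B. The receptor NOTCH2 was at 18.4, 47.3, 23.6 and 42.7 CPM against 148, 130, 82.2 and 118 CPM (-1.89, SE 0.282, edgeR adjusted p = 0.000431), and NOTCH3 fell by 1.77 (edgeR adjusted p = 0.0033). The receptors called in edgeR were both lower, while the called ligands went both ways. The NOTCH2 call was lost in limma on log2(TPM + 1), with an adjusted p of 0.152. Of the target repressors, HES1 was at 0, 0.0219, 0.0844 and 0.545 CPM in KO and at 1.62, 1.64, 3.54 and 13.9 CPM in WT. The groups did not overlap, with a log2 difference of -5.0 (SE 1.63, edgeR adjusted p = 0.0426). The call was lost when KO replicate 1, 2 or 3 or WT replicate 1, 3 or 4 or HET replicate 1 was left out, with an edgeR adjusted p of up to 0.124 without WT replicate 4. HEYL fell by 1.05, and HEY1 rose from 2.08 ± 0.824 to 8.23 ± 1.62 CPM (1.97, edgeR adjusted p = 0.000577).

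Neural progenitor genes did not move as a group: 3 of 17 tested members were higher and 2 lower, with a median of 0.20 that turned to -0.10 without KO replicate 4. ZIC2, a zinc-finger factor of the early neural plate, was at 68.3, 92.9, 82.3 and 70.6 CPM in KO and at 13, 24.8, 15.3 and 13.1 CPM in WT (2.23, SE 0.374, edgeR adjusted p = 0.000987). The RNA-binding proteins MSI1 and MSI2 rose by 0.86 and 1.31 (edgeR adjusted p = 0.00351 and 5.88e-05). SOX9 went from 15.3 ± 3.65 CPM in WT to 7.68 ± 2.46 CPM in KO (-1.02, edgeR adjusted p = 0.0114), and the intermediate filament VIM was lower by -0.96 (edgeR adjusted p = 0.0284), a call lost without KO replicate 1, 2 or 3 or WT replicate 2 or 4 (adjusted p up to 0.0861). NES, the progenitor filament nestin, was at 734 ± 170 CPM in KO and at 940 ± 157 CPM in WT and did not pass (edgeR adjusted p = 0.175).

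**Figure D3:**
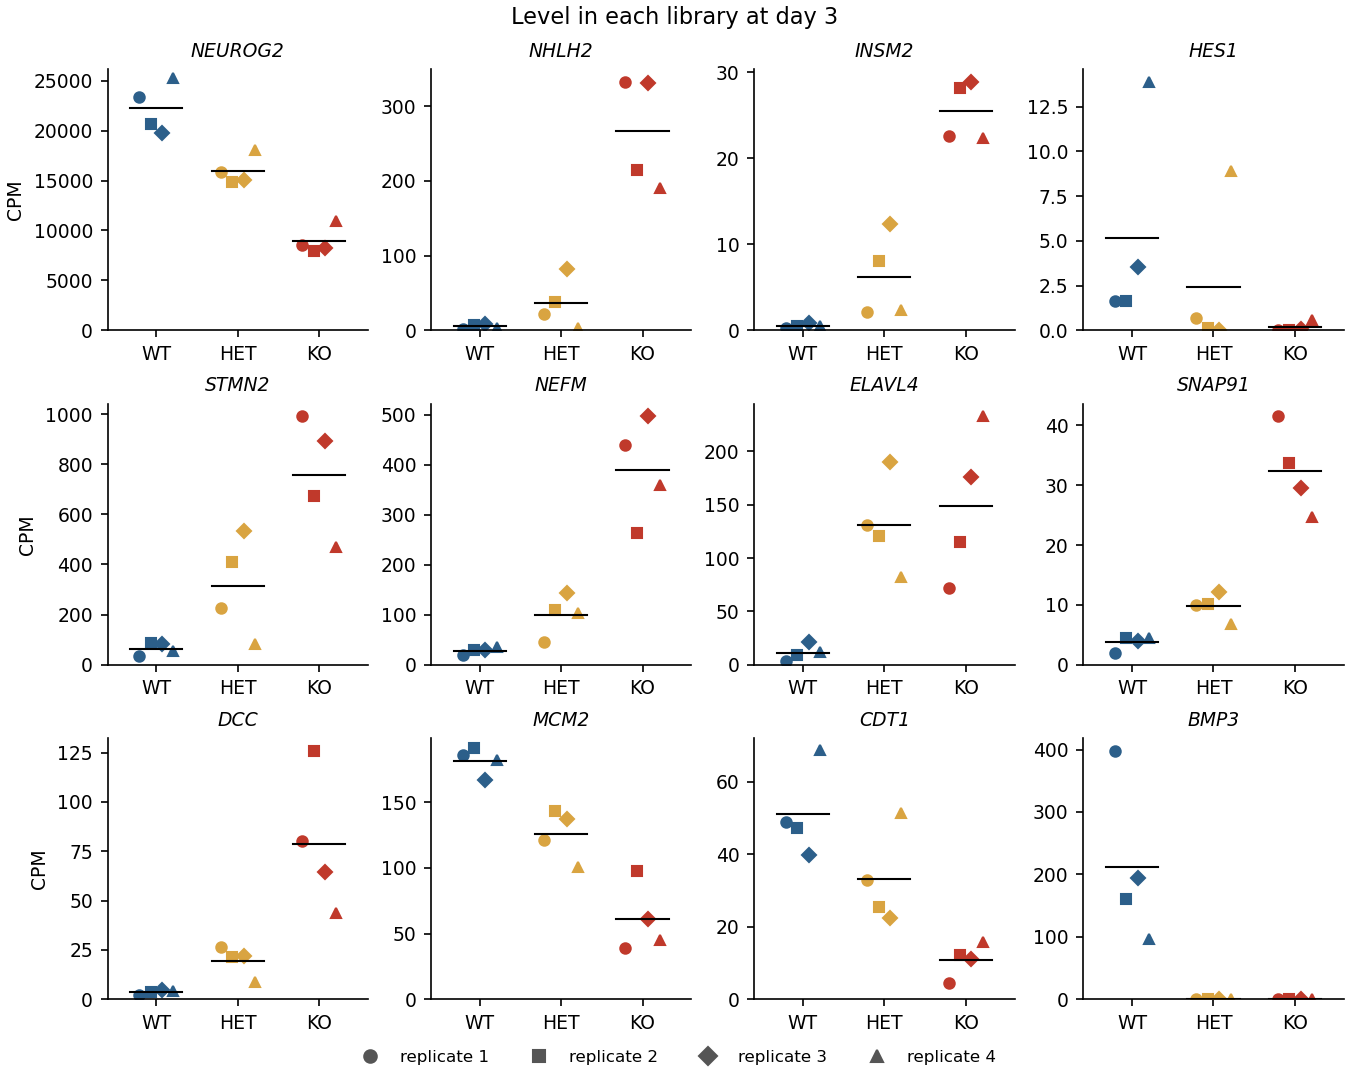
Level in CPM (linear axis) of 12 genes in each day 3 library of WT, HET and KO. Marker shape gives the replicate number and a bar the group mean. NHLH2, STMN2 and NEFM are higher and NEUROG2, MCM2, CDT1 and BMP3 lower in all 4 KO libraries than in all 4 WT libraries.

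Genes of DNA replication were lower in KO in 21 of 22 tested members, with a median of -1.39; POLA1 alone did not pass. The summed level was 2650, 3080, 2420 and 2610 CPM in WT and 731, 1600, 1340 and 1060 CPM in KO, and no KO library reached a WT library. MCM2, a subunit of the replicative helicase, was at 39.1, 97.8, 61.3 and 45.3 CPM in KO and at 186, 191, 167 and 182 CPM in WT (-1.61, SE 0.232, edgeR adjusted p = 0.000331). CDT1, which loads that helicase, was at 4.61, 12.2, 11.1 and 15.9 CPM against 48.8, 47.3, 39.9 and 68.8 CPM (-2.26, SE 0.36, edgeR adjusted p = 0.000673). CDC6, its loading partner, was at 6.01, 20.5, 17 and 11.9 CPM against 39 to 57 CPM (-1.85, edgeR adjusted p = 0.000732). GINS2 and MCM4, both parts of the helicase complex, fell by 1.62 and 1.60 (edgeR adjusted p = 0.000322 and 0.00269). On the log2(TPM + 1) scale the list's median stayed 1.17 below that of all genes, with 1 member called.

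Mitosis genes showed 13 of 20 tested members lower and none higher, with a median of -0.94. CDK1, the kinase that drives entry into mitosis, was at 33.1, 57.1, 88.2 and 109 CPM in KO and at 168, 228, 226 and 282 CPM in WT (-1.67, SE 0.332, edgeR adjusted p = 0.00294). AURKB, a kinase of chromosome segregation, was at 16.2, 35.6, 44.8 and 59.1 CPM against 131, 119, 68.6 and 120 CPM (-1.51, edgeR adjusted p = 0.00573). TOP2A was at 186, 538, 363 and 386 CPM against 756, 962, 425 and 819 CPM, ranges that overlapped (-1.04, edgeR adjusted p = 0.0226), and the call was lost without KO replicate 1 or 3 or WT replicate 1, 2 or 4 (adjusted p up to 0.0632). The count of called members was 5 without KO replicate 1, WT replicate 1 or WT replicate 2, 6 without KO replicate 3 and 8 without KO replicate 2, and 0 on the log2(TPM + 1) scale, where the median was 0.75 below that of all genes.

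Cyclins D and cell cycle inhibitors went both ways in edgeR, 1 of 13 tested higher and 4 lower. Limma on log2(TPM + 1) called 2 of 12 higher and 0 lower. CCND1, cyclin D1, was at 28.6, 70.2, 104 and 52.3 CPM in KO and at 5.29, 19.7, 13.2 and 12 CPM in WT (2.32, SE 0.397, edgeR adjusted p = 0.00111), and all KO libraries were above all WT libraries. The inhibitor CDKN2C was lower by -1.59, the pocket protein RBL1 by -0.95, CCND3 by -1.55 and the inhibitor CDKN1B by -0.59 (edgeR adjusted p = 0.00424, 0.0121, 0.0355 and 0.0358). The CCND3 call was lost without KO replicate 1, 2 or 3 or WT replicate 3 or 4, and the CDKN1B call without any KO replicate or WT replicate 2, 3 or 4. Without KO replicate 1, 2 or 3 or WT replicate 3 or 4, 2 rather than 4 members were called lower.

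Axon guidance and adhesion genes were higher in 27 of 42 tested members and lower in 3, with a median of 1.23. The log2(TPM + 1) scale gave 15 of 33 higher and 1 lower, with a median 0.87 above that of all genes. DCC, the netrin receptor, was at 80, 126, 64.5 and 43.8 CPM in KO and at 1.99, 3.64, 4.76 and 4.11 CPM in WT (4.41, SE 0.413, edgeR adjusted p = 1.4e-05). ROBO2, a Slit receptor, was at 120, 78, 69.7 and 42 CPM against 1.01, 5.6, 5.16 and 6.76 CPM (4.05, edgeR adjusted p = 0.000117). DCC and ROBO2 were many times higher in every KO library than in any WT library. The contactin CNTN6 rose from 0.532 ± 0.302 to 18.2 ± 10.5 CPM (5.07, SE 0.654, edgeR adjusted p = 0.000143), and CNTNAP2 and the semaphorin co-receptor PLXNA4 by 3.50 and 3.39 (edgeR adjusted p = 6.33e-05 and 0.000792). The lower members, named after their values were seen, were the netrin NTN1, ROBO3 and the contactin CNTN4. CNTN4 was at 10.9, 10.8, 8.41 and 4.19 CPM in KO and at 67.7, 104, 82.8 and 61.5 CPM in WT (-3.23, edgeR adjusted p = 0.000145), the opposite of its paralog CNTN6.

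Presynaptic genes were higher in 22 of 29 tested members, with SYN2 alone lower and a median of 1.06. On the log2(TPM + 1) scale 8 of 28 were called higher, with a median 0.76 above that of all genes. The summed level was 966 to 1120 CPM in WT and 1930 to 2260 CPM in KO. SNAP91, an adaptor of vesicle endocytosis, was at 41.6, 33.7, 29.6 and 24.6 CPM in KO and at 1.93, 4.46, 3.95 and 4.55 CPM in WT (3.10, SE 0.285, edgeR adjusted p = 1.22e-05), and every KO library was above every WT library. The vesicle proteins SYT4 and RAB3A rose by 3.30 and 2.11, and the active zone protein RIMS1 by 2.22 (edgeR adjusted p = 0.000482, 0.000228 and 0.000137).

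Postsynaptic and receptor genes were higher in 12 of 25 tested members and lower in none, with a median of 0.86. With log2(TPM + 1) 3 of 17 were called higher, and the median was 0.58 above that of all genes. GRIK5, a kainate receptor subunit, was at 41.8, 30.2, 27.4 and 25.8 CPM in KO and at 6.56, 7.87, 9.11 and 9.05 CPM in WT (1.92, SE 0.209, edgeR adjusted p = 4.23e-05). The AMPA receptor subunit GRIA2 was at 9.33, 4.24, 3.66 and 7.21 CPM against 0.424, 0.66, 1.24 and 3.02 CPM (2.19, edgeR adjusted p = 0.0155), with an adjusted p of 0.0502 without KO replicate 1. GRIA4 and the NMDA receptor subunit GRIN2D rose by 2.06 and 1.90 (edgeR adjusted p = 0.000626 and 0.000182).

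Voltage-gated channel genes were higher in 19 of 28 tested members and lower in 1, with a median of 1.66. Calls on log2(TPM + 1) were higher in 6 of 19, and the median was 0.68 above that of all genes. SCN3A, a sodium channel of developing neurons, was at 46.6, 34.1, 27 and 5.35 CPM in KO and at 1.2, 3.46, 1.81 and 0.728 CPM in WT (3.95, SE 0.815, edgeR adjusted p = 0.00378). KO replicate 4 was the lowest KO library and still above the highest WT library. CACNA2D1, an auxiliary calcium channel subunit, was at 138, 92.7, 86.7 and 69.4 CPM against 21, 19.2, 21 and 16.2 CPM (2.30, SE 0.278, edgeR adjusted p = 8.94e-05). The calcium channel CACNA1G, the sodium channel SCN9A and the potassium channel KCNA2 rose by 3.30, 3.07 and 2.52 (edgeR adjusted p = 0.000317, 0.00518 and 0.000732).

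Of the genes that set the transmitter, 5 of 12 tested were higher and none lower. SLC17A6, the vesicular glutamate transporter VGLUT2, was at 10.4, 9.54, 14.5 and 3.49 CPM in KO and at 0.0737, 0.387, 0.19 and 0.208 CPM in WT (5.44, SE 0.695, edgeR adjusted p = 0.000134). SLC6A3, the dopamine transporter, was at 36.9, 37.9, 34.6 and 30.4 CPM against 1.42, 2.82, 3.52 and 3.8 CPM (3.58, SE 0.302, edgeR adjusted p = 5.78e-06). Genes of different transmitters were therefore among those that rose; CHAT, the acetylcholine-synthesising enzyme, rose by 0.91 (edgeR adjusted p = 0.015). Neuropeptide and dense-core granule genes were higher in 8 of 14 tested and lower in 1, NMB. CHGA, a granule protein, was at 144, 73.5, 96.2 and 67.5 CPM against 26.9, 20.9, 28.3 and 21.1 CPM (1.96, edgeR adjusted p = 0.00126), and the peptide SST at 3.21, 5.34, 20.2 and 6.19 CPM against 0.111 to 0.666 CPM (4.75, edgeR adjusted p = 0.00147). VGF and the prohormone convertase PCSK2 rose by 2.20 and 2.33 (edgeR adjusted p = 0.000555 and 9.07e-05).

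Peripheral and sensory neuron genes were higher in 11 of 18 tested members and lower in none, with a median of 2.02 and a summed level of 146 to 193 CPM in WT against 554 to 990 CPM in KO. POU4F1, a homeodomain factor of sensory neurons, was at 120, 64.3, 72.4 and 28.5 CPM in KO and at 7.81, 1.87, 1.78 and 0.962 CPM in WT (4.49, SE 0.798, edgeR adjusted p = 0.00142). NTRK3, the receptor for NT3, was at 134, 107, 85.2 and 116 CPM against 10.6, 18.7, 19.9 and 17.2 CPM (2.72, SE 0.219, edgeR adjusted p = 4.08e-06). PRPH, the peripheral neuron filament, rose by 3.39 (edgeR adjusted p = 0.00133). Forebrain and POU3F factors were higher in 6 of 13 tested members. POU3F2, an upper-layer cortical factor, was at 204, 231, 332 and 313 CPM in KO and at 50.3, 92.5, 79 and 60 CPM in WT (1.92, SE 0.254, edgeR adjusted p = 0.000174). The cortical factor EMX1 was below the count filter. HOX genes were called higher in 5 of 10 tested members, in 1 of 10 without KO replicate 1 or without any single WT replicate, and in 2 without KO replicate 3; their summed level was 8.63 to 16.5 CPM in WT and 7.72 to 67.1 CPM in KO. HOXB9 was at 18.4 CPM in KO replicate 1 and at 0.547 to 1.61 CPM in the other KO libraries, with an edgeR adjusted p of 0.032 that became 0.12 without that library and 0.0743 to 0.112 without each WT replicate.

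BMP, TGF-beta and ID genes moved in both directions, with 3 of 20 tested members higher and 4 lower (4 and 7 with the block). BMP3, a member of the BMP family that can oppose other BMPs, had the largest fall of the list, at 0.57, 0.306, 0.281 and 0.471 CPM in KO and at 398, 161, 195 and 96.3 CPM in WT (-9.03, SE 0.515, edgeR adjusted p = 1.52e-07). In HET it was at 0.104 ± 0.0626 CPM, also far below WT. In WT the level of BMP3 was 2.36 ± 1.16 CPM at day 0 and 27 ± 16.6 CPM at day 7, so that its mean WT level was highest at day 3 of the 3 days. CHRD, the BMP antagonist chordin, was at 30.8, 31.8, 27 and 43.8 CPM against 127, 75, 87.1 and 101 CPM (-1.57, edgeR adjusted p = 0.00159). The ligands TGFB2 and TGFB3 rose by 1.76 and 2.12, and TGFB1 was lower by -1.74 (edgeR adjusted p = 0.00208, 0.0112 and 0.0334). The TGFB1 call was lost without KO replicate 1, 2 or 3 or WT replicate 1, 3 or 4 (edgeR adjusted p up to 0.103). None of the BMP targets ID1, ID2, ID3 and ID4 passed.

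Other lists ranged from few calls to about as many as not. Immediate early genes were higher in 6 of 13 tested, among them ARC, a synaptic activity gene, at 21.4, 20.9, 19.1 and 9.51 CPM in KO against 1.03, 1.52, 1.21 and 2.89 CPM in WT (3.39, SE 0.402, edgeR adjusted p = 7.87e-05), while FOS, JUN and NR4A1 did not pass. Of the subunits that distinguish neural BAF chromatin remodelling complexes, 2 of 9 were higher and 1 lower (3 and 3 with the replicate block). DPF3 was at 30.5, 24.7, 18.7 and 18.4 CPM against 1.14, 1.77, 3.33 and 4.45 CPM (3.09, SE 0.41, edgeR adjusted p = 0.000176). p53 targets had 2 of 20 higher and 1 lower (7 and 4 with the block), and cholesterol synthesis genes 2 of 20 higher (5 higher and 2 lower with the block, and none higher without KO replicate 1). MAGE genes were higher in 4 of 8 tested members, of 18 listed. MAGEH1 and MAGEE1, described below, were at 0 in all WT libraries of day 3. They passed the count filter only through the other genotypes.

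Markers of the starting cells and of other cell types were mostly uncalled. Of 12 tested pluripotency genes 2 were higher and none lower (5 and 2 with the block), and NANOG, TDGF1, GDF3 and UTF1 were below the count filter. The summed level was 501 to 616 CPM in WT and 810 to 961 CPM in KO, without overlap, and LIN28A, an RNA-binding protein, was higher by 0.81 (edgeR adjusted p = 0.0353), a call lost without KO replicate 1 or 4 or WT replicate 1, 2 or 3 (adjusted p up to 0.0941). POU5F1 was at 2.33 ± 2.81 CPM in KO and at 10.3 ± 13.5 CPM in WT and did not pass (edgeR adjusted p = 0.269). Epithelial adhesion genes had 1 of 13 higher, CLDN6, and 1 lower, LSR (2 and 4 with the block). Trophoblast markers had no call among 4 tested, with summed levels of 23.8 to 52.8 CPM in WT and 27.8 to 45.2 CPM in KO. Mesendoderm markers, of which 3 of 11 were tested, had 1 higher and 1 lower, and none called without KO replicate 1, 2 or 3. They summed to 1.09 to 2.48 CPM in WT and 1.56 to 2.68 CPM in KO. Glial markers had 1 of 8 higher and 2 lower (4 and 2 with the block), with sums of 95.3 to 127 CPM in WT and 116 to 219 CPM in KO. PDGFRA, a receptor of oligodendrocyte precursors and mesenchyme, was at 58.5, 61.7, 48.9 and 89 CPM in KO against 6.06, 7.44, 4.26 and 11 CPM in WT (3.15, SE 0.326, edgeR adjusted p = 3.09e-05), and at 2.83 ± 0.944 CPM in HET. Mesenchyme and endothelium markers had 1 of 11 higher (1 higher and 3 lower with the block) and summed to 254 to 606 CPM in WT and 78.3 to 289 CPM in KO; their part in the other differences was not tested.

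Some genes were read in KO and not, or barely, in WT. By rule, 14 genes (12 with a symbol) were at 3 counts or fewer in all 12 WT libraries of days 0, 3 and 7 and had a mean of at least 5 CPM in KO at day 3. POU3F4 (ENSG00000196767), a POU-domain factor on chromosome X, was at 70.7, 30.2, 64.5 and 66.4 CPM in KO and 0 in all 4 WT libraries of day 3, at least 850-fold higher against a floor of 3 counts per library (edgeR adjusted p = 5.81e-06). MAGEH1, a MAGE family gene on chromosome X, was at 32.9, 23.1, 47.2 and 62.4 CPM (at least 607-fold, edgeR adjusted p = 1.01e-06). CRYZ, a quinone reductase, was at 34.1, 31.8, 43.1 and 44.5 CPM (at least 562-fold, edgeR adjusted p = 1.28e-08), and PUS7L, a pseudouridine synthase family member, at 36.1, 42.4, 31.3 and 17.3 CPM (at least 466-fold, edgeR adjusted p = 3.02e-06). All 14 genes were above 3 counts in every KO library of days 0 and 7 as well, so they were read in KO before induction too. In HET at day 3, 13 of the 14 were above 3 counts in all 4 libraries, and MAGEE1 was at 0 in all 4. MAGEE1 was at 7.81, 8.49, 7.37 and 7.83 CPM in KO (at least 115-fold, edgeR adjusted p = 1.01e-05).

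Of these 14 genes 7 lie on chromosome X, which held 683 (3.17%) of the genes tested, and 4 lie within 100 kb of another of them. CRYZ and TYW3 overlap head to head on chromosome 1, so their reads may mix, and MAGEH1 and USP51 are 31050 bases apart. Over chromosome X as a whole, 137 of 683 genes (20.1%) were higher in KO and 8.64% lower, against 10.1 to 16.9% higher on the other chromosomes.

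**Figure D4:**
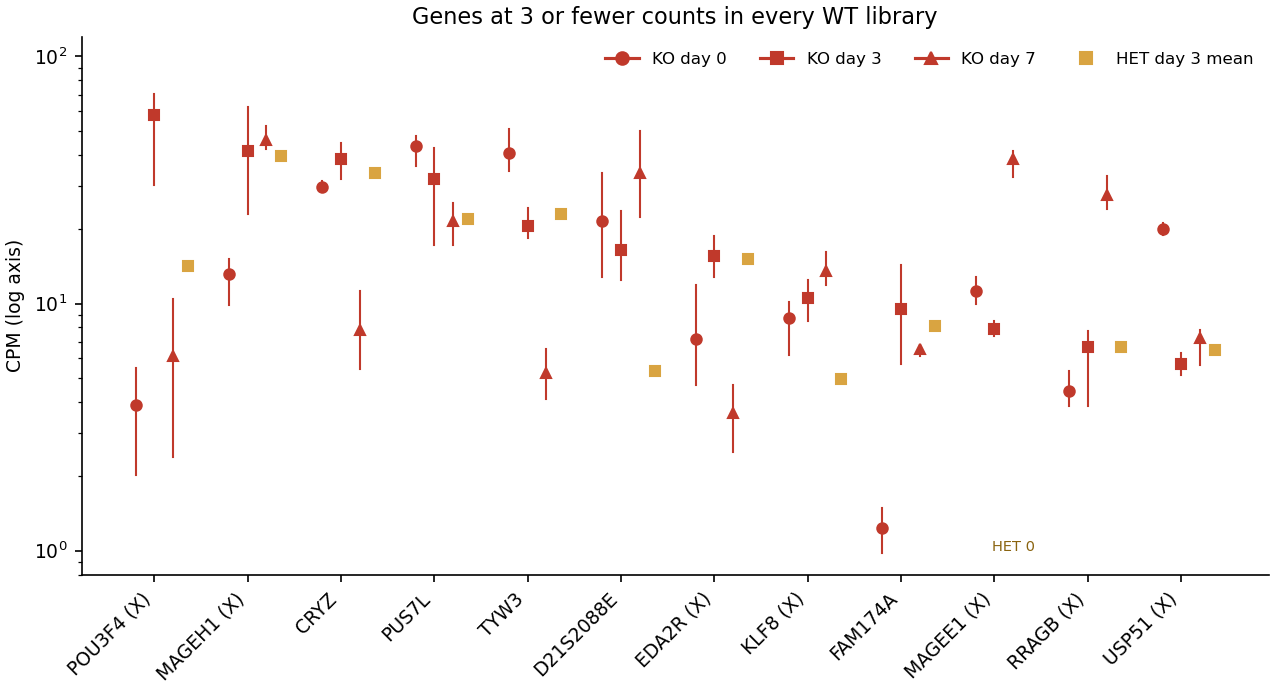
Level in CPM (log axis) of the 12 genes with a symbol that were at 3 counts or fewer in all WT libraries, as the KO mean at days 0, 3 and 7 with bars from the lowest to the highest library, and the HET mean at day 3. KO levels are present at all 3 days, and HET is at 0 for MAGEE1 alone.

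By a similar rule turned round and applied to day 3 alone, 1 gene was absent in KO: NLRP2, an NLR family protein of early embryos. The rule on day 3 alone gave 20 genes absent in WT. NLRP2 lies at chromosome 19, 54953130 to 55001142, where it overlaps NLRP7. It was at 0 in all 4 KO libraries and at 26.7, 25.3, 21.4 and 18.3 CPM in WT, at least 310-fold lower (edgeR adjusted p = 1.19e-07), and at 17.3 ± 4.99 CPM in HET. At day 0 it was at 96.1 ± 5.5 CPM in WT and at 0.00838 ± 0.0168 CPM in KO. RefSeq start-site windows of POU3F4, CRYZ and NLRP2 are shown because these genes were read in KO alone or in WT alone of the pair; capitals mark CG, the site of DNA methylation. On GRCh38.p14 they are chrX:83508040-83508339 (plus strand) for POU3F4, chr1:74733001-74733300 (minus strand) for CRYZ, and chr19:54966124-54966423 (plus strand) for NLRP2. The NLRP2 window lies inside the GENCODE 29 interval given above, whose outer start is further upstream and is not shown. The same holds for the CRYZ window, inside the interval 74705482 to 74733408 of that gene. It also holds the GENCODE 29 start of TYW3, at 74733152 on the plus strand.
POU3F4: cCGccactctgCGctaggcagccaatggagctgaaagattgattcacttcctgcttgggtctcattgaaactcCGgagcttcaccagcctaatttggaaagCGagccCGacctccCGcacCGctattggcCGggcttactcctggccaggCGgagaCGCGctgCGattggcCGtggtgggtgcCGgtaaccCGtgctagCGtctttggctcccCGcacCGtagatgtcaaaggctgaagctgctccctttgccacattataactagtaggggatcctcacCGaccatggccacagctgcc
CRYZ: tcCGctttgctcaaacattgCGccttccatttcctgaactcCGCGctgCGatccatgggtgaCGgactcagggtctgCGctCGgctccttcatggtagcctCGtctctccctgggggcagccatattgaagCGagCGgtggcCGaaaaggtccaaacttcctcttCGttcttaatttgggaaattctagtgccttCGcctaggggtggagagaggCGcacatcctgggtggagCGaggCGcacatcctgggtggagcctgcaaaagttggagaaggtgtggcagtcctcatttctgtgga
NLRP2: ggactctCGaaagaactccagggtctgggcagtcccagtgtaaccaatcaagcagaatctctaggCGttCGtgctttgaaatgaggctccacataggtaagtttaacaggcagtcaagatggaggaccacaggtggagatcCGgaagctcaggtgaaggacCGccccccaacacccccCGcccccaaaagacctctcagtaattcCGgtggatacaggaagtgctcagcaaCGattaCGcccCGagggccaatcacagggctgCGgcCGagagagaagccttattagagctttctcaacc
They hold 19, 17 and 12 CG sites. Windows rich in CG, with more than 50% GC and an observed to expected ratio over 0.6, made up 75.2% of those of all genes tested, 67.8% of those of genes called higher, 77.1% of those of genes called lower, and 3 of the 7 found for the 14 genes. Methylation was not measured in these libraries.

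Among the other large falls, CD9, a tetraspanin, was at 0.546, 0.438, 0.844 and 1.09 CPM in KO and at 9.77, 15.3, 19 and 26.7 CPM in WT (-4.62, edgeR adjusted p = 0.000143). The pepsinogens PGA3, PGA4 and PGA5 were lower by -3.86, -4.64 and -4.56, but they are near-identical copies and their single values are uncertain. WNT11 was lower by -3.69 (edgeR adjusted p = 0.0467). That call was lost on leaving out KO replicate 1, 2 or 3, any WT replicate or HET replicate 1, with an edgeR adjusted p of up to 0.123 without WT replicate 4.

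Few of the day 3 differences were called before induction. The KO against WT test at day 0 called 425 of 20437 genes (2.08%), or 960 with the replicate block. Of 19017 genes tested at both days, 4233 were called at day 3, 371 at day 0 and 248 at both, which is 66.8% of the day 0 calls and 5.86% of the day 3 calls; 236 of the 248 had the same direction, 199 higher and 37 lower. NHLH2 was already higher at day 0, at 2.01 ± 0.833 against 0.346 ± 0.254 CPM (2.56, edgeR adjusted p = 0.0345). DCC, MCM2, CDT1, CCND1 and STMN2 did not pass at day 0 (edgeR adjusted p = 0.951, 0.991, 0.864, 0.233 and 0.425). Whether the differences at the 2 days themselves differ was not tested.

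The KO differences were then set beside the course of WT cells from day 0 to day 7, fitted on WT libraries; the WT libraries of day 3 enter that fit through its spread only. In WT 15002 of 22268 genes (67.4%) were called between those days, with 7886 (35.4%) higher and 7116 (32%) lower at day 7. Of the 2723 genes higher in KO at day 3, 63.4% rose in WT and 11.8% fell, and of the 1926 lower in KO, 61.5% fell and 15.3% rose. Over all 21563 genes tested 35.2% rose and 29.8% fell. Among the 1726 genes that were higher in KO and rose in WT, the KO level at day 3 was above the WT level at day 7 in 771 (44.7%), and among the 1185 that were lower in KO and fell in WT it was below the WT level at day 7 in 336 (28.4%). STMN2, for example, reached 1430 ± 444 CPM in WT at day 7 (821 to 1870 CPM), a range that overlapped that of KO at day 3, whereas the WT level of INSM2 at day 7 was 0.961 ± 0.218 CPM, below every KO library of day 3.

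**Figure D5:**
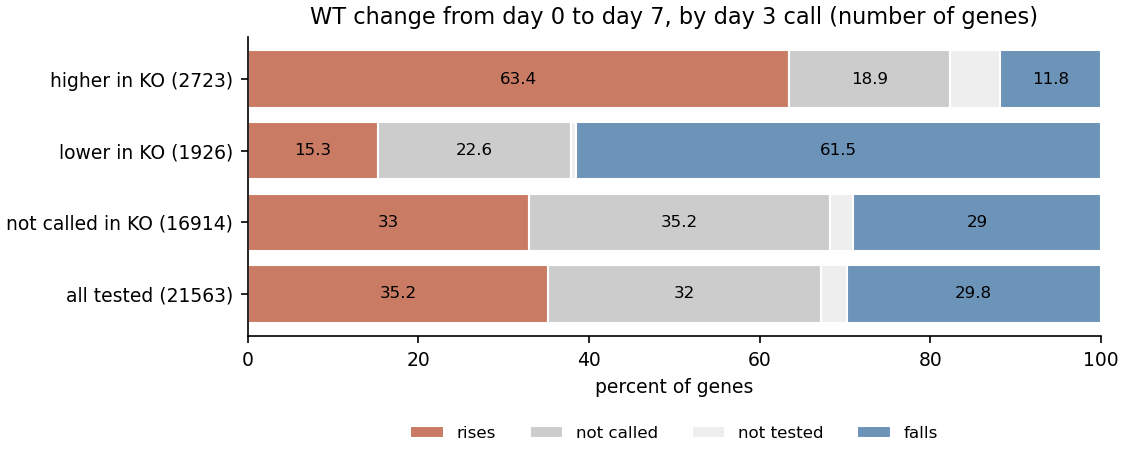
Percent of genes (horizontal) that rose, fell, were not called or were not tested between day 0 and day 7 in WT, for genes higher, lower or not called in KO at day 3. Of genes higher in KO 63.4% rose in WT, and of genes lower in KO 61.5% fell.

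A smaller set went against the WT change from day 0 to day 7. LRRTM3, a synaptic adhesion protein, fell in WT and was at 37.7, 25.5, 24.2 and 56.8 CPM in KO against 0.0921, 0.273, 0.238 and 0.026 CPM in WT at day 3 (7.80, edgeR adjusted p = 1.58e-06); it lies within CTNNA3. The histone genes H3C3 and H2BC3, of near-identical families, were higher by 7.63 and 6.35 (edgeR adjusted p = 2.95e-05 and 3.74e-05), with H3C3 at 16, 37.5, 166 and 131 CPM in KO and already at 110 ± 22 CPM at day 0 against 1.66 ± 0.582 CPM in WT. ITGB8, an integrin subunit, was at 36.1, 31.3, 24.8 and 20.6 CPM against 1.57, 2.37, 2.02 and 2.13 CPM (3.78, edgeR adjusted p = 3.49e-06). In the other direction, ENDOG, a mitochondrial nuclease, rose in WT from day 0 to day 7. At day 3 ENDOG was at 11.5, 6.04, 10.9 and 13.4 CPM in KO. WT was then at 128, 43.3, 143 and 55.8 CPM (-3.16, edgeR adjusted p = 0.000105). The WT mean of ENDOG was 4.54 CPM at day 0 and 15.2 CPM at day 7, so like BMP3 it was highest at day 3. The KO mean of 10.5 CPM at day 3 lay between the WT means of days 0 and 7. BMP3 and CNTN4 belong here too. Of genes that rose in WT, TMEM196 and ZNF737 were among the most raised in KO. ZNF737 was at 76.1, 54.7, 62.5 and 50.7 CPM against 0.052 to 0.424 CPM at day 3 (7.93, edgeR adjusted p = 1.8e-07). In WT the mean of ZNF737 rose only from 0.143 CPM at day 0 to 0.633 CPM at day 7. It was already at 21.9 ± 2.84 CPM in KO at day 0, and at 28.1 ± 9.92 CPM in HET at day 3.

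Against HET cells of the same day fewer genes differed from KO, 937 of 21563 (4.35%), 597 higher (2.77%) and 340 lower (1.58%). The replicate block gave 2739 calls. DNA replication genes were lower than in HET in 18 of 22 (median -1.16). Cytoskeleton genes were higher in 9 of 25 (median 1.07), or in 18 with the block. Proneural genes were higher in 11 of 27 and lower in 1 (median 0.94), and axon genes higher in 16 of 42 and lower in 1 (median 0.71). The comparison shares the KO libraries with that against WT, so it is no independent repeat. NEFM was at 101 ± 40.8 CPM in HET (KO minus HET 1.93, edgeR adjusted p = 0.00449) and DCC at 19.6 ± 7.68 CPM (1.96, edgeR adjusted p = 0.0101), both between the KO and WT means. STMN2 in HET was at 313 ± 200 CPM and did not pass against KO (1.26, edgeR adjusted p = 0.15). ELAVL4 was at 131 ± 44.7 CPM in HET, and the difference from KO was 0.16 (edgeR adjusted p = 0.893).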

How the data were processed

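Total RNA from 36 libraries of 3 RAI1 genotypes at 3 days was extracted with TRIzol, depleted of ribosomal RNA and sequenced on a NovaSeq X Plus as 151 bp pairs, per the labels' protocols. The authors deposited estimated counts per gene and TPM values. The submitters' processing notes name cutadapt 4.8, FastQC 0.11.8, MultiQC 1.20, STAR 2.7.8a, RSEM 1.3.3 and GRCh38; the annotation and the use of strand are not given in the sources used here, so overlapping and antisense genes are uncertain. Of 62710 gene identifiers, 58274 (92.9%) matched GENCODE 29; 4 reporter sequences were left out (at most 0.0171% of a library).

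The deposited estimated counts were rounded to whole numbers and fitted with edgeR 4.0.16 (filterByExpr, TMM, quasi-likelihood test, Benjamini-Hochberg adjustment, threshold 0.05) in R 4.3.3 on the 12 libraries of day 3, HET included, without a replicate block. Separate fits covered day 0 (12 libraries) and WT over time (12 libraries). CPM values are TMM-scaled over 36 libraries. The authors' TPM values were tested with limma 3.58.1 as an alternative, DESeq2 1.42.0 as another. Single values were tested with exact two-sided permutation tests (scipy 1.17.1). The procedure was tested on simulated data. Intervals and floors cover counting error only.

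Same-numbered KO and WT libraries of day 3 deviated together from their group means (correlations 0.134, 0.579, 0.174 and 0.571, all over 0.1), although no label ties equal numbers to a batch, so values with the number as a block stand beside the counts of calls that it moves by over 1.5 times. KO replicate 1 of day 3 correlated more with WT replicate 3 (0.202) than with WT replicate 1. At day 0 the correlations of same-numbered libraries were 0.435, 0.697, 0.288 and 0.557.

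Lists of genes and their members were chosen with earlier results of these data known. Named genes were RAI1 and its reported partners, the up to 5 called members of each list with the largest difference and a mean of at least 5 CPM in the higher group, the 12 largest rises and 12 largest falls among genes whose libraries did not overlap, and the 8 highest of the genes at 3 counts or fewer in WT. TUBB3, DLL4, NOTCH3, HEYL, LSR, NEUROG2, GADD45G, single members named as the exception in a list, and the genes set against the WT course were chosen after their values were seen. Some genes under these rules are not reported here.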

Additional observations from a re-analysis of the deposited data

Results flagged for a closer look

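Of 250 groups of 4 libraries, 20 held a library set apart from the other 3 by more than Dixon's 95% critical value; chance alone gives about 1 in 20 groups, or 12.5. KO replicate 4 was that library in 5 of them. In it HES1 was at 0.545 CPM (others 0 to 0.0844), PGA5 at 0.669 (0.197 to 0.263), MICA at 1.81 (0.169 to 0.372), WNT11 at 3.57 (0.237 to 0.534), all nearer to WT, and RRAGB at 3.84 (7.59 to 7.75). KO replicate 1 stood apart for HOXB9 at 18.4 CPM (0.547 to 1.61) and POU3F1 at 49.3 (41.8 to 42.3). KO replicate 2 did so for POU3F4 at 30.2 CPM (64.5 to 70.7) and TCF20 at 206 (135 to 141), and KO replicate 3 for genes over 3 counts, 23400 (24400 to 24600).

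In WT, replicate 4 stood apart for HES1 at 13.9 CPM (1.62 to 3.54), DLL1 at 304 (107 to 130) and CCND3 at 64.6 (26.1 to 32.2). WT replicate 1 did so for its total of 51.3 M counts (41.8 to 42.7), POU4F1 at 7.81 CPM (0.962 to 1.87) and HOXB9 at 0.0184 (0 in the others). WT replicate 3 did so for TNFRSF18 at 8.18 CPM (3.89 to 4.14), DRGX at 1.85 (0.702 to 0.842) and TYW3 at 0.0238 (0 in the others), and WT replicate 2 for EDA2R at 0.0228 (0 in the others). For HOXB9, TYW3 and EDA2R the other WT libraries were at 0, so any count at all sets a library apart. The TYW3 and EDA2R values are 1 count each. These flags are among the 20. The causes were not tested.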

How the results depend on the processing

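The number of genes called between KO and WT at day 3 was 4649 as reported. It was 782 in limma on log2(TPM + 1), 846 on log2(TPM + 0.1) and 8138 with the replicate block, and without each replicate in turn it ranged from 3214 to 5813. Under library size alone the share called higher was 51.4% in place of 58.6%, and with the share of small structural RNA as a covariate 55.0%. On log2(TPM + 1) the cytoskeleton list kept 20 of 25 tested members called higher and the proneural list 19 of 25. Transmitter genes had 1 of 4 called higher on that scale. Between KO and HET the count of 937 became 1836 in DESeq2, 38 and 39 on the TPM scales and 1788 with 36 libraries. It was 2739 with the replicate block and 1766 with the covariate. Same-numbered KO and HET libraries correlated at -0.0872, 0.661, 0.281 and 0.688, so the numbers do not pair these groups in every replicate. Without each replicate the count was 334 to 1241, the lowest without HET replicate 1. HET replicates were left out after seeing the data. A fit of KO and HET on the 8 KO and WT libraries was not possible. The day 0 count of 425 was 960 with the replicate block. The share of higher genes that rose in WT was 53% with a minimum change of 1 on the log2 scale (26.1% of all genes) and 59.2 to 64.6% without each replicate; that of lower genes that fell was 50.2% (18.4% of all genes) and 58.7 to 61.7%. The RAI1 difference turned to -0.05 with the covariate; the cause was not tested. Of 124 called named genes 81 were called in every setting that tested them, out of 22 settings. Some of the 81, such as KLF8 and ONECUT3, were tested in only 20. Of the 124, 39 were lost in limma on log2(TPM + 1), 17 without a replicate and 0 with the block. Depth limits calls for genes near 3 counts per library, where a fold is given as a bound.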
